A study of Mus musculus with 29 samples.

Results

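Genes of antioxidant defence and glutathione metabolism were followed across 6 groups of cytokine-stimulated mouse macrophages. The 10 genes listed were Gclc, Gclm, Nqo1, Txnrd1, Prdx1, Gpx1, Gpx3, Sod2, Cat and Mt1, and a probe set counted when its annotation named exactly 1 of them and no other gene. This gave 16 probe sets for 9 of the 10 genes, out of 22690 probe sets and 12394 genes with a probe set of their own. All 5 probe sets of Prdx1 also name Gm21399, so Prdx1 has no value here. Nqo1 lay under the filter on low values on every array, and the 8 genes that remained were tested among 7154. The list was given by gene name, but it was chosen with earlier results of these data known.

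The cells were macrophages derived from wild-type C57BL/6 bone marrow (mice 8 weeks of age), kept for 7 days in Teflon bags with CSF-1, the growth factor of the macrophage lineage, at 10 ng/ml. They were then held for 24 h with CSF-1 at 10 ng/ml alone (unstimulated, 8 arrays) or with added IL-4 (5 arrays), IL-6 (5 arrays), IL-10 (3 arrays), IL-4 with IL-6 (5 arrays) or IL-4 with IL-10 (3 arrays), each cytokine at 10 ng/ml. Every group, the unstimulated one included, therefore carried CSF-1. RNA of each culture was read on an Affymetrix 3' array, and the labels do not say whether arrays of a group come from separate mice or separate cultures, so p-values measure the spread between these arrays, which may be technical.

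Reactive oxygen species are made by phagocytes through the NADPH oxidase and by every cell through its mitochondria. Superoxide dismutases turn superoxide into hydrogen peroxide, which catalase, the glutathione peroxidases and the peroxiredoxins remove. Glutathione is made in a first, rate-limiting step by glutamate-cysteine ligase, and many of these genes are targets of the transcription factor NRF2 (gene Nfe2l2), which acts through antioxidant response elements.

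Values are log2 levels, so a difference of 1 is a doubling, and levels of different probe sets are not comparable with each other. A gene was called at a Benjamini-Hochberg adjusted p under 0.05 in limma's moderated test, and "rose" and "fell" are used of called differences. Because RNA of whole cultures was read, fewer cells of a type and less RNA per cell cannot be told apart.

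With IL-6 alone, 6 of the 8 tested genes fell (Gclc, Gclm, Txnrd1, Gpx1, Gpx3 and Cat), where 23.1% of all tested genes did, and 2 rose (Sod2 and Mt1), where 16.1% of all tested genes did. The median difference of the 8 genes was -0.57 log2, against -0.03 over all tested genes. With IL-10 alone 5 fell (19.5% of all genes) and 2 rose (18.3%), with a median of -0.35 against 0.00. With IL-4 alone 5 fell (31.9% of all genes) and 2 rose (27.6%), with a median of -0.22 against -0.01, and no difference reached 1 log2 unit. IL-4 with IL-6 gave 6 genes lower (38.8% of all genes) and 1 higher (35.0%), with a median of -0.95 against -0.02, and 4 of the 8 differences were of at least 1 log2 unit. IL-4 with IL-10 gave 5 genes lower (34.0% of all genes) and 2 higher (38.1%), with a median of -0.45 against 0.02 and 2 differences of at least 1 log2 unit. These comparisons share the same 8 unstimulated arrays, so they are not independent of each other.

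**Figure D1:**
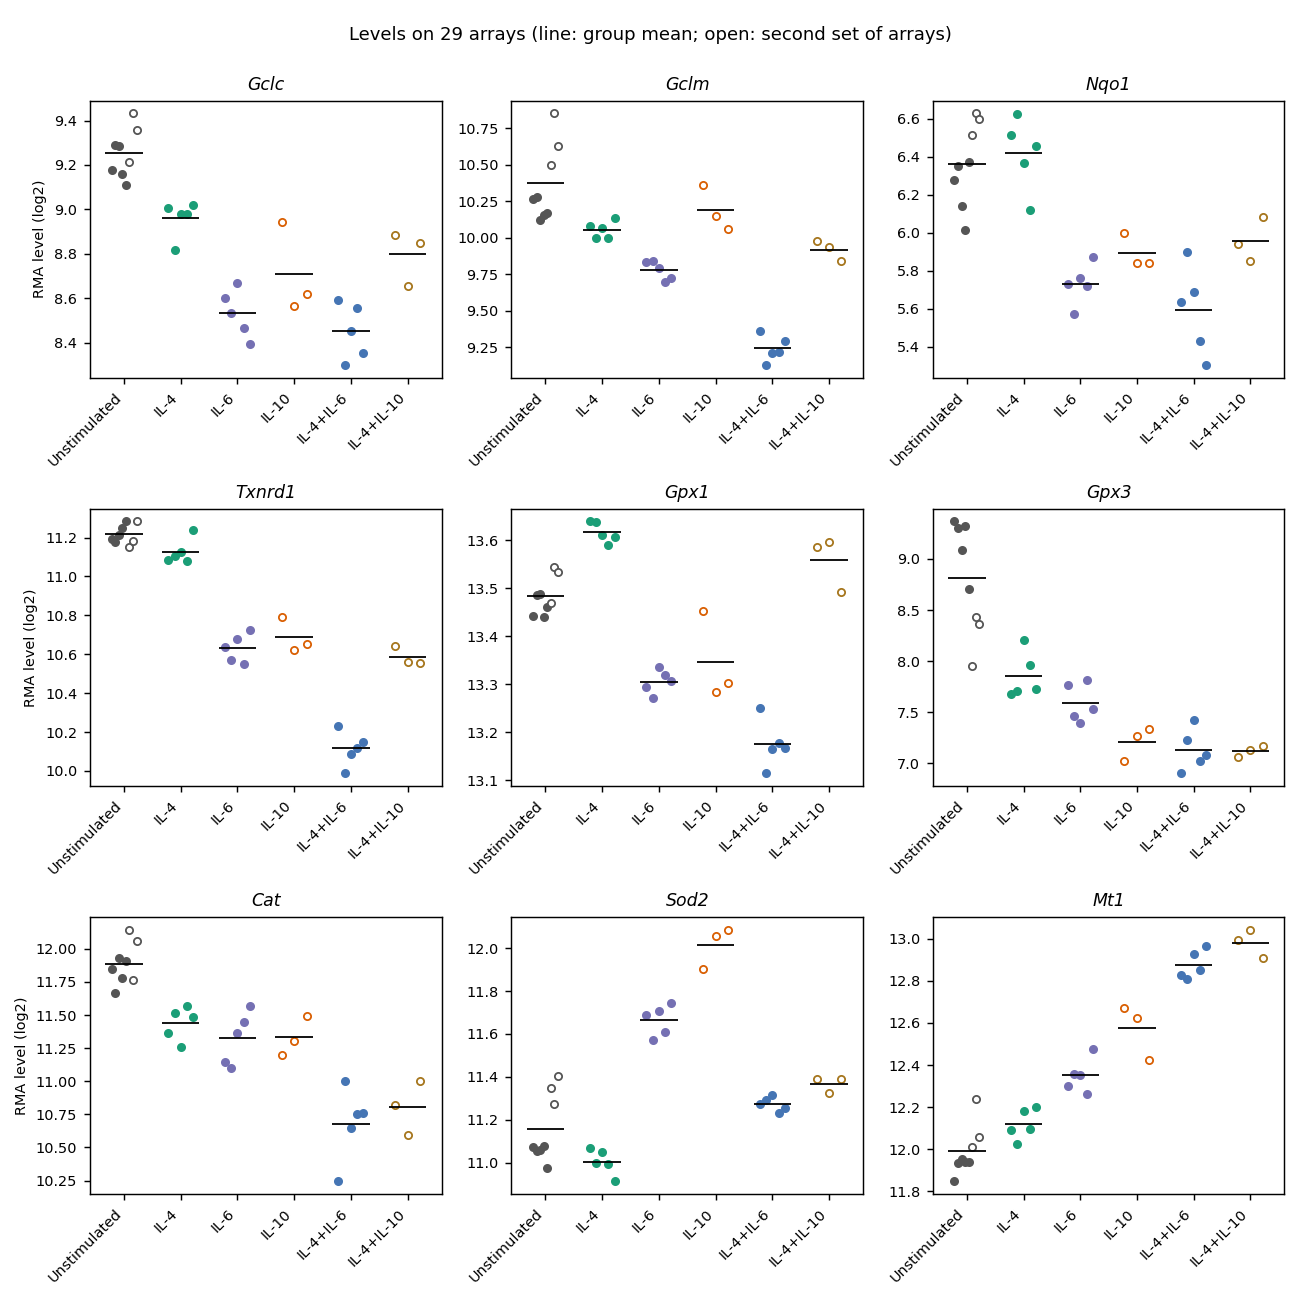
Level of the representative probe set of each gene (log2, vertical axis, own scale in each panel) on each of the 29 arrays by group, with the group mean as a line. Open points are unstimulated replicates 6 to 8 and the IL-10 groups, here called the second set. Txnrd1, Gclm and Cat are lowest with IL-4 and IL-6 together, Sod2 is highest with IL-10 alone, and Mt1 is highest in both combinations.

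**Figure D2:**
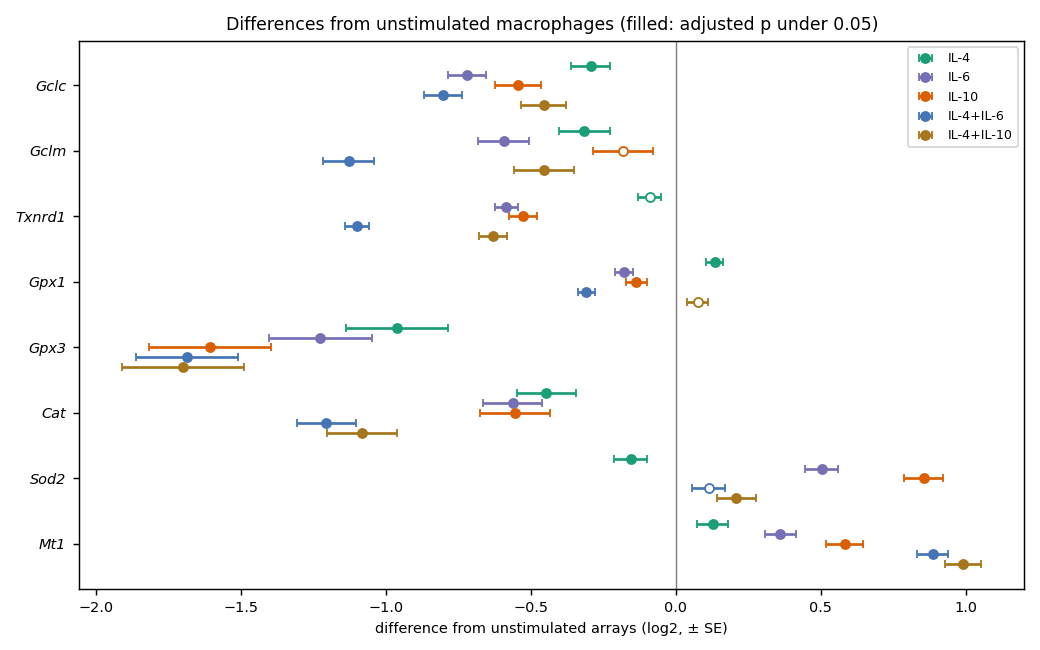
Difference of each stimulated group from the unstimulated arrays (log2, ± SE) for the 8 tested genes. Filled points are called and open points are not, and Sod2 and Mt1 are the genes with most points to the right of 0.

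The unstimulated arrays did not form 1 tight group for every gene. Replicates 6 to 8 stood apart from replicates 1 to 5, and since the IL-10 groups also hold 3 arrays each, these 9 arrays were treated as a second set, which no label states. In the sample order, unstimulated replicates 6 to 8 are listed among the IL-10 arrays. Unstimulated replicates 1 to 5 are listed among those with IL-4, IL-6 and IL-4 with IL-6. Between the unstimulated sets Gclm was higher by 0.46 in replicates 6 to 8 (adjusted p = 3.74e-05), Gpx3 was lower, at -0.91 (adjusted p = 7.7e-05), Sod2 was higher by 0.29 (adjusted p = 5.8e-05) and Mt1 was higher by 0.18 (adjusted p = 0.0359). Gclc, Txnrd1, Gpx1 and Cat gave adjusted p-values from 0.274 to 0.845. For the 8 genes and for Mt2, Hmox1, Nfe2l2 and Cybb, values against the unstimulated arrays of the same set are therefore given below where they change the call or direction of a printed difference from unstimulated arrays or move it by over 1.5 times.

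The means of cell type marker lists also varied. Of the macrophage list 9 of 10 genes were on the array and all 9 passed the filter, with list means of 11.89 to 13.11. The list mean was 12.50 to 12.67 in unstimulated arrays, 11.89 to 12.03 with IL-4, 13.05 to 13.11 with IL-6 and 12.96 to 13.05 with IL-10. It was 12.23 to 12.38 with IL-4 and IL-6 and 12.14 to 12.27 with IL-4 and IL-10. The genes of this list did not move alike over all arrays. Fcgr1 ran from 8.52 to 12.56, Cd14 from 10.19 to 13.27, Mrc1 from 11.83 to 14.60 and Itgam from 9.85 to 11.88. Mertk ran from 8.47 to 9.94, Adgre1 from 12.92 to 13.81 and Lyz2 from 14.29 to 14.93. Csf1r ran only from 14.14 to 14.43 and Cd68 from 13.63 to 13.90. The B cell and plasma cell list passed with 4 of 6 genes on the array (Cd79a and Pax5 did not pass), and its mean was 6.29 to 7.83 in unstimulated arrays, 6.67 to 7.71 with IL-4, 7.02 to 7.79 with IL-6, 6.53 to 7.66 with IL-4 and IL-6, 6.27 to 6.33 with IL-10 and 5.76 to 6.02 with IL-4 and IL-10. The neutrophil list passed with 6 of 8 genes, and its mean was 8.60 to 9.0 in unstimulated arrays, 8.31 to 8.61 with IL-4, 8.62 to 8.86 with IL-6, 8.72 to 9.08 with IL-10, 8.16 to 8.44 with IL-4 and IL-6 and 8.18 to 8.61 with IL-4 and IL-10. No gene of the T and NK cell list (of 7 on the array), the mast cell and basophil list (of 5) or the fibroblast list (of 6) passed. Of the dendritic cell list 1 of 4 passed, and of the erythroid and megakaryocyte list 3 of 5. The genes of that last list lay far apart. Pf4 ran from 10.42 to 12.92, Itga2b from 7.30 to 7.98, Epor from 6.53 to 7.15, Klf1 from 4.99 to 5.76 and haemoglobin Hba-a1 from 4.08 to 4.73. The 3' minus 5' difference of Actb, a measure of RNA integrity, had group means from 0.25 with IL-6 to 0.42 with IL-4 and IL-10. The part of these differences in the results was not tested.

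Gclc encodes the catalytic subunit of glutamate-cysteine ligase. On the unstimulated arrays it ran from 9.11 to 9.43, with a median of 9.25. The IL-6 arrays read 8.60, 8.53, 8.67, 8.47 and 8.40, and the arrays with IL-4 and IL-6 read 8.59, 8.30, 8.45, 8.55 and 8.36. All 10 lay below every unstimulated array. Gclc fell by 0.72 ± 0.07 (SE) with IL-6 (1.65-fold lower, adjusted p = 7.85e-10) and by 0.80 ± 0.07 with IL-4 and IL-6 (1.74-fold lower, adjusted p = 1.27e-11). The IL-10 arrays, at 8.94, 8.56 and 8.62, and the arrays with IL-4 and IL-10, at 8.89, 8.66 and 8.85, also lay below the unstimulated range. Gclc fell by 0.54 ± 0.08 with IL-10 (adjusted p = 2.67e-06) and by 0.46 ± 0.08 with IL-4 and IL-10 (adjusted p = 9.62e-06). IL-4 alone gave the smallest of these decreases, 0.29 ± 0.07 (adjusted p = 0.00039), from arrays at 9.01, 8.82, 8.98, 8.98 and 9.02. The other Gclc probe set, whose values correlated with the first over the 29 arrays (r = 0.91), gave -0.10 ± 0.05 for IL-4 (adjusted p = 0.0988), so the decrease with IL-4 was called by 1 probe set of 2, and the decreases with the other 4 stimulations by both.

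Gclm encodes the modifier subunit, which raises the affinity of the ligase for its substrates. Its unstimulated arrays ran from 10.12 to 10.85, with a median of 10.27. The arrays with IL-4 and IL-6 read 9.36, 9.13, 9.21, 9.21 and 9.30, the lowest of all 6 groups and with no overlap with any other group. Gclm fell by 1.13 ± 0.09 with this combination (2.19-fold lower, adjusted p = 3.22e-12). IL-6 alone, with arrays at 9.83, 9.84, 9.79, 9.70 and 9.72, lowered it by less, at -0.59 ± 0.09 (1.51-fold lower, adjusted p = 3.12e-06). IL-4 alone (10.08, 10.00, 10.07, 10.00 and 10.13) overlapped the unstimulated range and gave -0.32 ± 0.09 (adjusted p = 0.00279). Against unstimulated replicates 1 to 5 this decrease was smaller, at -0.14 ± 0.05 (adjusted p = 0.0102), and it had the same size with the replicate number as a block (adjusted p = 0.00462).

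With IL-10 the Gclm arrays read 10.36, 10.15 and 10.06. The first pair lay within the unstimulated range and the last just below it, and the difference of -0.18 ± 0.10 was not called (adjusted p = 0.171). Against unstimulated replicates 6 to 8 alone it was -0.47 ± 0.10 (adjusted p = 0.00745), so the call depended on which unstimulated arrays were used. With IL-4 and IL-10 the arrays read 9.98, 9.94 and 9.84, all below the unstimulated range, and Gclm fell by 0.45 ± 0.10 (adjusted p = 0.000327), or by 0.74 ± 0.10 against replicates 6 to 8 (adjusted p = 0.000106).

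The promoter of Gclm is shown because the gene fell with 4 of the 5 stimulations and because its 300 bases hold 1 match to the antioxidant response element of NRF2 targets. It lies on the + strand at chr3:122245307-122245606 (RefSeq, build GRCm38.p6), from 250 bases before to 50 bases after the start site.
Gclm: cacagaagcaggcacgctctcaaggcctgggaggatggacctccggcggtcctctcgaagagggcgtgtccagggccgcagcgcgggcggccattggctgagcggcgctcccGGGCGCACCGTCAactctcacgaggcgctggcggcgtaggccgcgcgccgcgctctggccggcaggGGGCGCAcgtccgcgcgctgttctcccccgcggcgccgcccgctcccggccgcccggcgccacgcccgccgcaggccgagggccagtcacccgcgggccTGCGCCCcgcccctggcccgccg
Capitals mark the matches. The antioxidant response element was searched as TGACNNNGC and the metal response element, to which the zinc-sensing factor MTF1 binds, as TGCACNC or TGCGCNC, both on either strand. The antioxidant match starts at -134 from the start site on the minus strand and overlaps the end of a metal response element match at -138, so both appear as 1 run of capitals. Further metal matches start at -72 and at 28. Of 32851 mouse promoters in the RefSeq table, 12.4% hold an antioxidant match and 25.7% a metal match. The table holds a promoter for 9 of the 10 listed genes, and a match describes the letters only. Of the other listed genes, Prdx1 and Txnrd1 also have an antioxidant match. None was found in the windows of Nqo1, Cat, Gpx1, Gpx3, Sod2 or Mt1, some of which fell as well.

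Txnrd1 encodes cytosolic thioredoxin reductase, which uses NADPH to reduce thioredoxin. Its unstimulated arrays were close together, from 11.15 to 11.28 with a median of 11.20. The IL-6 arrays read 10.63, 10.57, 10.68, 10.55 and 10.73, and the arrays with IL-4 and IL-6 read 10.23, 9.99, 10.09, 10.12 and 10.15. These groups overlapped neither the unstimulated arrays nor each other. Txnrd1 fell by 0.58 ± 0.04 with IL-6 (1.50-fold lower, adjusted p = 2.76e-12) and by 1.10 ± 0.04 with IL-4 and IL-6 (2.14-fold lower, adjusted p = 1.84e-19). IL-4 alone (11.09, 11.11, 11.12, 11.08 and 11.24) overlapped the unstimulated arrays and was not called, at -0.09 ± 0.04 (adjusted p = 0.0567). With the replicate number as a block this difference was -0.10 ± 0.03 and was called (adjusted p = 0.0185). It was also called without IL-4 replicate 5 (-0.12, adjusted p = 0.0186) and without unstimulated replicate 6 (-0.10, adjusted p = 0.0417).

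The IL-10 arrays of Txnrd1 read 10.79, 10.62 and 10.65, and those with IL-4 and IL-10 read 10.64, 10.56 and 10.56. Both groups lay below every unstimulated array, and they overlapped each other. Txnrd1 fell by 0.53 ± 0.05 with IL-10 (adjusted p = 8.72e-10) and by 0.63 ± 0.05 with IL-4 and IL-10 (adjusted p = 4.84e-12). The other 2 probe sets of Txnrd1 were under the filter and were not tested, and their correlations with the first were 0.76 each over 29 arrays. Their means were lowest with IL-4 and IL-10, at 5.89 and 4.65, against 6.03 and 4.77 with IL-4 and IL-6. The lowest place of IL-4 with IL-6 thus holds for the first probe set only. With all 3 averaged the decreases stayed called but were smaller, -0.35 with IL-6 (adjusted p = 1.17e-06) and -0.69 with IL-4 and IL-6 (adjusted p = 4.21e-13). Of 3 annotated promoters of Txnrd1, the second holds an antioxidant match at -92.

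Nqo1 encodes a quinone reductase and is a widely used NRF2 target. Its level was low throughout, with all 29 arrays between 5.30 and 6.63 and the filter at 6.99, so it was not tested with the other genes, and all its values lie below the median of all probe sets. The unstimulated arrays ran from 6.02 to 6.63 and the IL-4 arrays from 6.12 to 6.63. The IL-6 arrays ran from 5.57 to 5.87 and those with IL-4 and IL-6 from 5.30 to 5.90, both below the unstimulated range. The IL-10 arrays, from 5.84 to 6.00, also lay below it, and those with IL-4 and IL-10, from 5.85 to 6.08, overlapped it. When the filter was left out, the limma difference from unstimulated arrays was 0.05 ± 0.10 with IL-4 (adjusted p = 0.73), -0.63 ± 0.10 with IL-6 (adjusted p = 1.48e-05) and -0.77 ± 0.10 with IL-4 and IL-6 (adjusted p = 1.27e-07). It was -0.47 ± 0.12 with IL-10 (adjusted p = 0.00399) and -0.40 ± 0.12 with IL-4 and IL-10 (adjusted p = 0.00541).

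Gpx1, the cytosolic glutathione peroxidase, differed from unstimulated arrays by between -0.31 and 0.13 on the log2 scale over the 5 groups, and its direction was not the same in all groups. Its unstimulated arrays ran from 13.44 to 13.54, with a median of 13.48. The IL-4 arrays, at 13.64, 13.64, 13.61, 13.59 and 13.61, were all above that range, and Gpx1 rose by 0.13 ± 0.03 (1.10-fold, adjusted p = 0.000437). The IL-6 arrays, at 13.29, 13.27, 13.33, 13.32 and 13.31, were all below it, as were those with IL-4 and IL-6, at 13.25, 13.11, 13.17, 13.18 and 13.17. Gpx1 fell by 0.18 ± 0.03 with IL-6 (adjusted p = 2.85e-05) and by 0.31 ± 0.03 with IL-4 and IL-6 (1.24-fold lower, adjusted p = 5.3e-10).

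With IL-10, Gpx1 read 13.45, 13.28 and 13.30, and fell by 0.14 ± 0.04 (adjusted p = 0.00373). This call was lost without IL-10 replicate 2 (-0.10, adjusted p = 0.0603) and against unstimulated replicates 6 to 8 alone (-0.17, adjusted p = 0.0945). With IL-4 and IL-10 the arrays read 13.59, 13.60 and 13.49, and the difference of 0.07 ± 0.04 was not called (adjusted p = 0.0643). It was called without unstimulated replicate 7 (0.08, adjusted p = 0.0373), without unstimulated replicate 8 (0.08, adjusted p = 0.048) and without replicate 3 of the combination (0.11, adjusted p = 0.0227), and with median centring of the arrays (0.11, adjusted p = 0.00241). Against unstimulated replicates 6 to 8 alone it was smaller and not called (0.04 ± 0.06, adjusted p = 0.595).

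Gpx3 encodes the secreted glutathione peroxidase of plasma. Against all unstimulated arrays it had the largest decrease of the 8 genes with each single cytokine and with both combinations. It also had the widest spread among unstimulated arrays, from 7.95 to 9.37 with a median of 8.90. Unstimulated replicates 6 to 8 read 7.95, 8.43 and 8.37, below replicates 1 to 5, which ran from 8.71 to 9.37. The IL-4 arrays (7.68, 7.70, 8.21, 7.96 and 7.73) overlapped the lowest unstimulated arrays, and the other 4 stimulated groups did not. Gpx3 fell by 0.96 ± 0.18 with IL-4 (1.95-fold lower, adjusted p = 3.58e-05) and by 1.23 ± 0.18 with IL-6 (2.34-fold lower, adjusted p = 2.41e-06), where the arrays read 7.77, 7.46, 7.39, 7.81 and 7.53.

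In the other 3 groups Gpx3 lay near the filter. The IL-10 arrays read 7.02, 7.27 and 7.34, those with IL-4 and IL-10 read 7.06, 7.13 and 7.17, and those with IL-4 and IL-6 read 6.90, 7.23, 7.42, 7.02 and 7.08. These 3 groups overlapped each other. Gpx3 fell by 1.61 ± 0.21 with IL-10 (3.05-fold lower, adjusted p = 5.49e-07), by 1.69 ± 0.18 with IL-4 and IL-6 (3.22-fold lower, adjusted p = 1.76e-09) and by 1.70 ± 0.21 with IL-4 and IL-10 (3.25-fold lower, adjusted p = 4.95e-08). Against unstimulated replicates 6 to 8 alone the decreases were smaller, 1.04 ± 0.12 with IL-10 (adjusted p = 0.000158) and 1.13 ± 0.12 with IL-4 and IL-10 (adjusted p = 1.86e-05). Against those replicates Cat fell by more than Gpx3 with IL-4 and IL-10, from a mean of 11.99 to 10.81.

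Cat encodes catalase, the peroxisomal enzyme that splits hydrogen peroxide. Its unstimulated arrays ran from 11.66 to 12.15, with a median of 11.88. The arrays with IL-4 and IL-6 read 10.24, 11.00, 10.65, 10.75 and 10.76, and those with IL-4 and IL-10 read 10.82, 10.59 and 11.00. Both combinations lay below all arrays of the single cytokines, which ran from 11.10 to 11.57. Cat fell by 1.21 ± 0.10 with IL-4 and IL-6 (2.31-fold lower, adjusted p = 2.19e-11) and by 1.08 ± 0.12 with IL-4 and IL-10 (2.12-fold lower, adjusted p = 8.28e-09). The decreases with IL-4 (0.45 ± 0.10, adjusted p = 0.000447), IL-6 (0.56 ± 0.10, adjusted p = 6.13e-05) and IL-10 (0.56 ± 0.12, adjusted p = 0.000589) were smaller. Both Cat probe sets were called lower with all 5 stimulations, and they correlated at r = 0.95 over the 29 arrays.

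Sod2 encodes the mitochondrial manganese superoxide dismutase. Unlike the genes above, it rose with IL-6 and with IL-10, and this rise was smaller where IL-4 was also present. Its unstimulated arrays ran from 10.98 to 11.40 with a median of 11.08, and replicates 6 to 8, at 11.35, 11.28 and 11.40, were the highest. The IL-10 arrays read 11.90, 12.06 and 12.09, and the IL-6 arrays read 11.69, 11.57, 11.71, 11.61 and 11.74, all above every unstimulated array. Sod2 rose by 0.86 ± 0.07 with IL-10 (1.81-fold, adjusted p = 4.85e-11) and by 0.50 ± 0.06 with IL-6 (1.42-fold, adjusted p = 3.64e-08). Against replicates 6 to 8 alone the rise with IL-10 was 0.67 ± 0.07 (adjusted p = 4.72e-05).

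The arrays with IL-4 and IL-10 read 11.39, 11.32 and 11.39 for Sod2, and those with IL-4 and IL-6 read 11.28, 11.29, 11.31, 11.23 and 11.25. Both groups fell within the unstimulated range. IL-4 and IL-10 gave 0.21 ± 0.07 (adjusted p = 0.0071), which became 0.03 ± 0.07 against unstimulated replicates 6 to 8 (adjusted p = 0.759). IL-4 and IL-6 gave 0.11 ± 0.06 (adjusted p = 0.0715), which became 0.22 ± 0.04 against replicates 1 to 5 (adjusted p = 1.37e-05), and was the same size with the replicate number as a block (adjusted p = 1.78e-05). It was also called on leaving out unstimulated replicate 6, 7 or 8 (0.14, 0.13 and 0.15). IL-4 alone gave -0.15 ± 0.06 (adjusted p = 0.0204), and this call was lost against replicates 1 to 5 (-0.04, adjusted p = 0.3), with the block (-0.04, adjusted p = 0.295) and without IL-4 replicate 5 (-0.13, adjusted p = 0.0679). The second Sod2 probe set gave -0.11 for IL-4 (adjusted p = 0.104) and was called for IL-6, IL-10 and IL-4 with IL-10, and the third was under the filter. The average of the 3 was not called for IL-4 either (-0.09, adjusted p = 0.125).

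The promoter of Sod2 is shown because both cytokines that raised it signal through STAT3 and its 300 bases hold 1 match to a STAT motif. It lies on the + strand at chr17:13007589-13007888 (RefSeq, build GRCm38.p6).
Sod2: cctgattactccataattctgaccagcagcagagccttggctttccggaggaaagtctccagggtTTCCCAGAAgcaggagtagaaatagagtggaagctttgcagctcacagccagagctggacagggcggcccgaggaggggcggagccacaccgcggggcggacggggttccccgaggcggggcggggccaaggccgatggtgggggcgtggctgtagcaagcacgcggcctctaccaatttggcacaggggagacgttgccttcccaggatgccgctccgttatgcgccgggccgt
Capitals mark the match to TTCNNNGAA, searched on both strands, which starts at -185 from the start site. Of the 32851 promoters 8.3% hold this motif, and 6.95% hold the form with 4 bases of any kind between TTC and GAA that STAT6 prefers. TTCNNNGAA was also found in 2 of the 3 promoters of Txnrd1, at -230 and -73, a gene that fell with IL-6 and with IL-10. Neither form was found in the windows of Cat, Gpx1, Gpx3, Nqo1, Gclm or Mt1, which says only that these letters are not there.

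Mt1 encodes a metallothionein, a small cysteine-rich protein that binds zinc and copper and scavenges radicals. It was the only one of the 8 genes called higher with all 5 stimulations. Its unstimulated arrays ran from 11.85 to 12.24, with a median of 11.95. The arrays with IL-4 and IL-10 read 12.99, 13.04 and 12.91, and those with IL-4 and IL-6 read 12.83, 12.81, 12.93, 12.85 and 12.97. Both combinations lay above every array of the other 4 groups. Mt1 rose by 0.99 ± 0.06 with IL-4 and IL-10 (1.99-fold, adjusted p = 1.01e-13) and by 0.89 ± 0.05 with IL-4 and IL-6 (1.85-fold, adjusted p = 1.38e-14).

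The IL-10 arrays read 12.67, 12.62 and 12.42 for Mt1, and the IL-6 arrays read 12.30, 12.36, 12.35, 12.26 and 12.48, all above the unstimulated range. Mt1 rose by 0.58 ± 0.06 with IL-10 (1.50-fold, adjusted p = 2.12e-08) and by 0.36 ± 0.05 with IL-6 (1.28-fold, adjusted p = 3.6e-06). IL-4 alone (12.09, 12.02, 12.18, 12.10 and 12.20) overlapped the unstimulated range, at 0.13 ± 0.05 (adjusted p = 0.0411). That call was lost on leaving out any of unstimulated replicates 1 to 5 or of IL-4 replicates 1, 3, 4 or 5, with values from 0.11 to 0.13. It was also lost when both Mt1 probe sets were averaged (0.09, adjusted p = 0.227). Against unstimulated replicates 1 to 5 alone the rise was larger and called (0.19 ± 0.04, adjusted p = 0.000676), and it had the same size with the replicate block (adjusted p = 2.94e-05). The other Mt1 probe set was under the filter and correlated with the first at r = 0.85 over 29 arrays. Its mean was highest with IL-10 alone, at 6.75, against 6.60 with IL-4 and IL-10 and 6.56 with IL-4 and IL-6. The top place of the combinations thus holds for the first probe set only.

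Mt2, the neighbouring metallothionein gene, is no member but was read beside Mt1. Its unstimulated arrays ran from 8.56 to 9.30, with a median of 8.87. The arrays with IL-4 and IL-6 read 11.60, 11.49, 11.61, 11.55 and 11.71, and those with IL-4 and IL-10 read 11.32, 11.35 and 11.16. These groups lay above every array of the single cytokines, the highest of which was 10.66. Mt2 rose by 2.71 ± 0.11 with IL-4 and IL-6 (6.55-fold, adjusted p = 2.5e-18) and by 2.40 ± 0.13 with IL-4 and IL-10 (5.27-fold, adjusted p = 4.92e-15). It rose by 1.14 ± 0.11 with IL-6 and by 1.63 ± 0.13 with IL-10, and was not called with IL-4, at -0.10 ± 0.11 (adjusted p = 0.474), or 0.07 ± 0.10 against unstimulated replicates 1 to 5 (adjusted p = 0.58).

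The promoters of Mt1 and Mt2 are shown because these genes rose together and share metal response elements. That of Mt1 lies on the + strand at chr8:94178839-94179138 and that of Mt2 on the + strand at chr8:94172368-94172667 (RefSeq, build GRCm38.p6).
Mt1: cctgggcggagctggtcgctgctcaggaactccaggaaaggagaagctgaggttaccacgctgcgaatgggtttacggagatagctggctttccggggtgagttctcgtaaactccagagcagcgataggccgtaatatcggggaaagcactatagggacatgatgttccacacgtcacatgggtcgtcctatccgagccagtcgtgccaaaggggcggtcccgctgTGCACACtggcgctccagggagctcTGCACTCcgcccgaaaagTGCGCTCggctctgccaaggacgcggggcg
Mt2: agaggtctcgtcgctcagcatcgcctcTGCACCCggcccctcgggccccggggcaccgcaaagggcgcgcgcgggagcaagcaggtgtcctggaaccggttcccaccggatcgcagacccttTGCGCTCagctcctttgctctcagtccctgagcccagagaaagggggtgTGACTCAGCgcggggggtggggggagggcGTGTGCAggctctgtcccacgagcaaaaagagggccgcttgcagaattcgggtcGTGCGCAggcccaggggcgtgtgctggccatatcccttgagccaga
Capitals mark the matches. The Mt1 window holds 3 metal response elements, starting at -23, 3 and 21, and the Mt2 window holds 4, starting at -223, -128, -50 and 5. At least 3 such matches occur in 1.97% of the 32851 promoters. The Gclm window shown above also holds 3, and Gclm did not rise with any stimulation. The Mt2 window also holds an antioxidant match at -79.

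**Figure D3:**
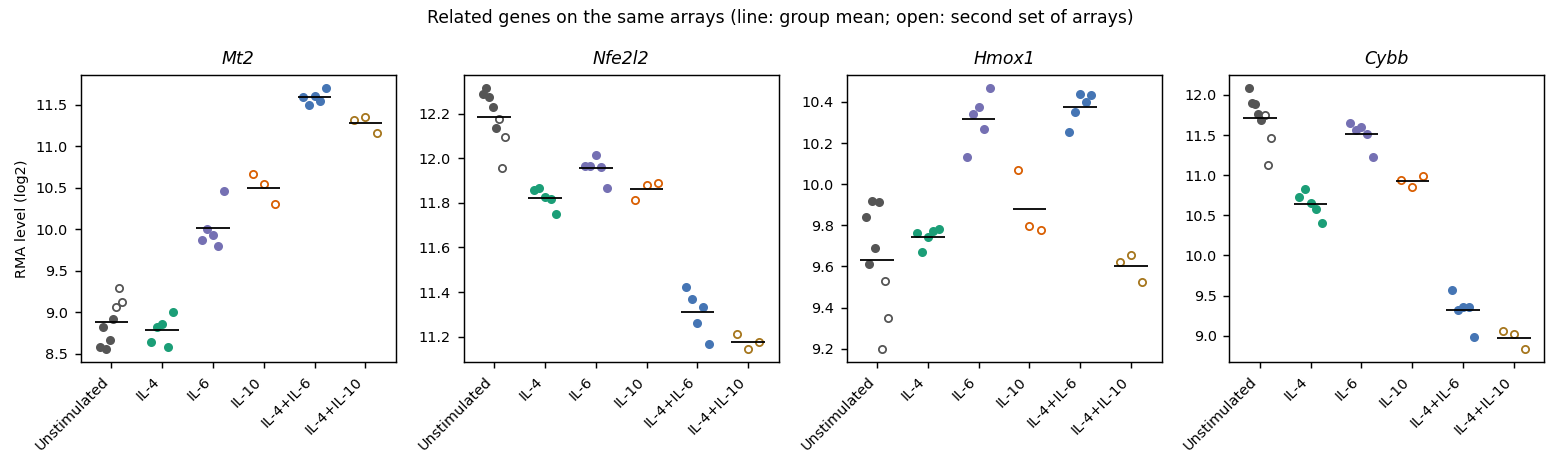
Levels of Mt2, Nfe2l2, Hmox1 and Cybb (log2, vertical axis, own scale in each panel) on the same 29 arrays by group, with the group mean as a line and the second set as open points. Mt2 is highest in both combinations, Nfe2l2 and Cybb are lowest there, and Hmox1 is high in the IL-6 groups.

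The combinations were compared with each of their single cytokines to see what the added cytokine did. Adding IL-6 to IL-4 lowered 6 of the 8 genes (31.2% of all genes fell) and raised Sod2 and Mt1 (29.4% of all genes rose). All 8 pairs of groups were without overlap, as were 47.6% of all tested genes. Txnrd1 fell by 1.01 ± 0.05 (2.01-fold lower, adjusted p = 4.31e-17), Gclm by 0.81 ± 0.10 (adjusted p = 3.31e-08) and Cat by 0.76 ± 0.11 (adjusted p = 1.51e-06). Sod2 rose by 0.27 ± 0.06 (adjusted p = 0.000565) and Mt1 by 0.76 ± 0.06 (adjusted p = 8.54e-12).

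Adding IL-4 to IL-6 lowered 6 genes (32.9% of all genes fell), Sod2 now among them, and raised Mt1 (34.0% of all genes rose), while Gclc was not called, at -0.08 ± 0.07 (adjusted p = 0.322). Sod2 fell by 0.39 ± 0.06 (adjusted p = 4.33e-06), or by 0.26 with its probe sets averaged (adjusted p = 0.000168), Cat by 0.64 ± 0.11 (adjusted p = 1.46e-05), Gclm by 0.54 ± 0.10 (adjusted p = 2.12e-05) and Txnrd1 by 0.52 ± 0.05 (adjusted p = 6.93e-11). The decrease of Gpx3, 0.46 ± 0.20 (adjusted p = 0.0404), was lost on leaving out replicate 1, 4 or 5 of either group.

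Adding IL-10 to IL-4 lowered 3 genes (Txnrd1, Gpx3 and Cat, where 24.6% of all genes fell) and raised 2 (Sod2 and Mt1, where 32.7% did). Txnrd1 fell by 0.54 ± 0.05 (adjusted p = 2.03e-09) and Cat by 0.63 ± 0.13 (adjusted p = 0.000185). The IL-4 and IL-10 groups lie in different sets, and adjusting for the set turned the difference of Gpx3 from -0.74 ± 0.23 (adjusted p = 0.00702) to 0.17 (adjusted p = 0.557). The same adjustment ended the call of Sod2, from 0.36 (adjusted p = 0.00013) to 0.07 (adjusted p = 0.426), and called Gclm lower, at -0.60 (adjusted p = 2.93e-05) in place of -0.14 (adjusted p = 0.295). Txnrd1, Cat and Mt1 kept their calls under it, at -0.52, -0.80 and 0.68. Gclc was not called by its first probe set (-0.16, adjusted p = 0.103) but was by its second (-0.37, adjusted p = 4.11e-05). Adding IL-4 to IL-10 lowered 2 genes (28.1% of all genes fell), Sod2 by 0.65 ± 0.08 (adjusted p = 1.18e-07) and Cat by 0.53 ± 0.15 (adjusted p = 0.00288). It raised 2 (31.8% of all genes rose), Mt1 by 0.41 ± 0.08 (adjusted p = 4.51e-05) and Gpx1 by 0.21 ± 0.04 (adjusted p = 0.000147). With both Mt1 probe sets averaged, the one under the filter included, the rise of Mt1 was 0.13 and not called (adjusted p = 0.199). Blocking on the replicate number also called Gclm (-0.27, adjusted p = 0.000153) and Txnrd1 (-0.10, adjusted p = 0.0469) lower in this comparison, and leaving out IL-10 replicate 3 also called Gclm (-0.34, adjusted p = 0.0426).

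IL-10 was compared with IL-6, since both signal through STAT3. Gclm, Sod2 and Mt1 were higher with IL-10, 3 of 8 where 6.26% of all genes were, and 0 were lower, where 5.62% were. The differences were 0.41 ± 0.11 for Gclm (adjusted p = 0.0225), 0.35 ± 0.07 for Sod2 (adjusted p = 0.00615) and 0.22 ± 0.07 for Mt1 (adjusted p = 0.0363). IL-10 and IL-6 arrays lie in different sets, and these are 3 of the 4 genes that differed between the unstimulated sets. With a term for the set 0 of the 8 genes were called, and Gclm turned to -0.05 (adjusted p = 0.999). Of all 7154 tested genes only 7 were called with that term, in place of 850, so the loss was not particular to these genes.

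A combination can match the sum of its parts or depart from it, and the interaction on the log2 scale is the combination minus both single differences. For IL-4 with IL-6 it was called for 4 of 8 genes, 3 below 0 (18.6% of all genes) and 1 above (21.4%). The single differences of Txnrd1 added to -0.68 and the combination reached -1.10, an interaction of -0.43 ± 0.06 (adjusted p = 2.18e-06). Gpx1 summed to -0.04 and reached -0.31, an interaction of -0.26 ± 0.05 (adjusted p = 3.1e-05). Mt1 summed to 0.49 and reached 0.89, an interaction of 0.40 ± 0.08 (adjusted p = 0.000199). Sod2 summed to 0.35 and reached 0.11, an interaction of -0.23 ± 0.08 (adjusted p = 0.0285), which was lost without IL-4 replicate 1 (adjusted p = 0.0525) or IL-6 replicate 5 (adjusted p = 0.0547).

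The single differences of Cat added to -1.01 and the combination reached -1.21, and its interaction of -0.20 ± 0.15 was not called (adjusted p = 0.321). The other Cat probe set gave -0.20 ± 0.07 and was called (adjusted p = 0.0232). Gclm was not called (-0.22 ± 0.13, adjusted p = 0.187) but was with the replicate block, at -0.39 (adjusted p = 1.36e-05), and against unstimulated replicates 1 to 5 (adjusted p = 5.26e-05). Gpx3 was likewise called under both, at 0.84 (adjusted p = 0.000333 and 0.000929), against 0.50 ± 0.26 with all unstimulated arrays (adjusted p = 0.137). There it summed to -2.19 and reached -1.69, so the value above 0 is a smaller decrease than the sum. Each also passed without 1 array, Gclm without unstimulated replicate 7 (-0.29, adjusted p = 0.0254) and Gpx3 without unstimulated replicate 6 (0.63, adjusted p = 0.0272).

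For IL-4 with IL-10 the interaction was called for 4 of 8 genes, 3 above 0 (15.5% of all genes) and 1 below (10.1%). Sod2 summed to 0.70 and reached 0.21, an interaction of -0.49 ± 0.10 (adjusted p = 0.00051). With unstimulated replicates 1 to 5 only, the set of the IL-4 arrays, it was -0.60 ± 0.06 (adjusted p = 1.62e-07). The IL-10 groups lie in the second set, and this interaction was not fitted with unstimulated replicates 6 to 8 only. In those replicates Sod2 was higher by 0.29 and Gpx3 was lower, at -0.91. Mt1 summed to 0.71 and reached 0.99, an interaction of 0.28 ± 0.09 (adjusted p = 0.0274). Gclc summed to -0.84 and reached -0.46, an interaction of 0.38 ± 0.12 (adjusted p = 0.016). Gpx3 summed to -2.57 and reached -1.70, an interaction of 0.87 ± 0.31 (adjusted p = 0.0386). For Gclc and Gpx3 the combination thus fell by less than the sum, and Gpx3 lay near the filter there. These 3 calls were less firm. The interaction of Mt1 was 0.04 with its probe sets averaged (adjusted p = 0.797). It was 0.21 ± 0.08 with unstimulated replicates 1 to 5 only (adjusted p = 0.0509). It was also lost without IL-4 replicate 2, IL-10 replicate 3 or replicate 1 or 2 of the combination. The second Gclc probe set gave 0.13 ± 0.09 and was not called (adjusted p = 0.319). The Gclc interaction was also lost without IL-10 replicate 2 or 3 or replicate 1 of the combination, with adjusted p-values from 0.0521 to 0.0668. That of Gpx3 was lost without any 1 of unstimulated replicates 2, 3 and 4, of IL-4 replicates 1, 2 and 5, or of the 6 arrays with IL-10, with adjusted p-values from 0.0511 to 0.0926. With unstimulated replicates 1 to 5 only, the Gpx3 interaction was 1.21 ± 0.20 (adjusted p = 6.59e-05).

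**Figure D4:**
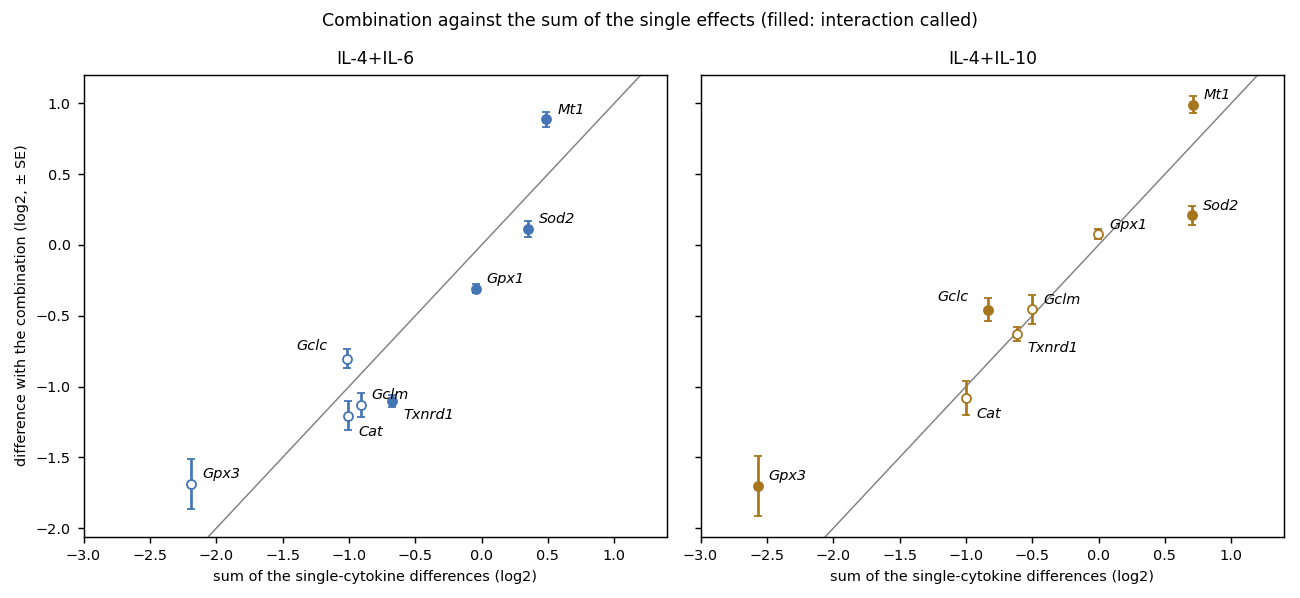
Difference of each combination from the unstimulated arrays (log2, ± SE, vertical axis) against the sum of its single-cytokine differences (log2, horizontal axis) for the 8 tested genes, with the line of equality. Filled points have a called interaction, and Txnrd1 lies below the line with IL-6 (-1.10 against -0.68) and near it with IL-10 (-0.63 against -0.62).

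The order of the groups by mean differed between the genes. The orders given here are those of the representative probe sets. Txnrd1 ran from unstimulated and IL-4, whose ranges overlapped, to IL-10, IL-6 and IL-4 with IL-10, whose neighbours overlapped. Then came IL-4 with IL-6, which stood alone, but the other Txnrd1 probe sets were lowest with IL-4 and IL-10. Sod2 ran from IL-10 through IL-6 and IL-4 with IL-10 to IL-4 with IL-6, with no overlap between these neighbours, and then to unstimulated and IL-4, which overlapped. IL-10 and IL-6 were without overlap for 22.2% of all tested genes. The neighbours without overlap lie in different sets, and unstimulated Sod2 was higher by 0.29 in the second set. Against unstimulated arrays of the same set the combinations changed places, at 0.03 for Sod2 with IL-4 and IL-10 and 0.22 with IL-4 and IL-6. Cat fell into 3 levels, unstimulated, the single cytokines and the combinations, with overlap inside each level and none between neighbours of different levels. Mt1 had the combinations at the top, overlapping each other, and unstimulated and IL-4 at the bottom.

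Across the 29 arrays, which share the group structure, Gclc and Txnrd1 correlated at r = 0.87, Gclm and Txnrd1 at 0.86 and Gclc and Gclm at 0.85. Cat and Mt1 ran opposite, at r = -0.87, as did Txnrd1 and Mt1, at -0.86. Sod2 and Gclm had the value nearest 0, -0.04. Outside the list, by Pearson's r over the same arrays, the tested gene most like Gclm was Mgst3, a microsomal glutathione transferase (0.97), followed by Taldo1, the transaldolase of the pentose phosphate pathway (0.96), and Selenoh (0.95). Txnrd1 was most like Lipa, lysosomal acid lipase (0.98), Adssl1 and St3gal5 (0.97 each). Sod2 was most like Saa3, an acute-phase protein (0.97), Nectin2 (0.93) and Wfdc18 (0.92). Mt1 was most like Uso1, Metrnl and Hsd17b10 (0.97 each), Cat like Rock1 (0.94), Tgfbr1 and Rad21 (0.93 each), Gclc like Aggf1 (0.94), Trmt1 (0.93) and Serpinb6b (0.92), Gpx1 like Kcnn4, Tubb4b (0.93 each) and Galnt10 (0.92), and Gpx3 like Rasal1 (0.93), Ppfibp2 (0.91) and Vegfa (0.90). These correlations describe the arrays and carry no test.

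Further genes of these pathways were read as lists, without the members. The counts below stand against the shares of all 7154 tested genes, of which 31.9% fell and 27.6% rose with IL-4, 23.1% and 16.1% with IL-6, 19.5% and 18.3% with IL-10, 38.8% and 35.0% with IL-4 and IL-6, and 34.0% and 38.1% with IL-4 and IL-10. With the replicate block 2297 of the 7154 genes rose with IL-4 in place of 1973, 1477 with IL-6 in place of 1153 and 2777 with IL-4 and IL-6 in place of 2505. The medians stand against medians over all tested genes of -0.03 to 0.02. Both are over the listed genes that passed the filter and carry no test of the list.

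Of 13 genes of glutathione synthesis, recycling and cystine uptake on the array 7 were tested, and 2 rose and 2 fell with each single cytokine, close to the shares of all genes for IL-4, while 5 rose and 2 fell with each combination. The median difference was 0.10 with IL-4, 0.06 with IL-6, 0.05 with IL-10, 0.34 with IL-4 and IL-6 and 0.28 with IL-4 and IL-10. With the replicate block 4 rose with IL-4. Gsr, which regenerates reduced glutathione, fell by 1.38 ± 0.04 with IL-4 and IL-6 (2.60-fold lower, adjusted p = 8.35e-21) and by 1.25 ± 0.05 with IL-4 and IL-10 (2.38-fold lower, adjusted p = 1.08e-17), and by 0.58 with IL-4. Chac1, which degrades glutathione, was the called gene of the list with the highest difference in both combinations, but of the 6 group means only that with IL-4 and IL-6, 7.27, exceeded the filter. Its unstimulated mean was 5.49 and its mean with IL-4 and IL-10 6.69, so no fold is given. Glrx, a glutaredoxin, rose by 0.52 with IL-6 and 0.69 with IL-10, and Abcc1, an exporter of glutathione conjugates, fell by 0.36 and 0.31. Slc7a11, the cystine transporter subunit, was under the filter with group means from 5.20 to 6.05 and was not tested.

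Of 13 tested glutathione peroxidases and transferases, 7 fell and 1 rose with IL-4, 7 fell and 0 rose with IL-6, 4 fell and 1 rose with IL-10, 9 fell and 3 rose with IL-4 and IL-6, and 7 fell and 2 rose with IL-4 and IL-10. The median difference was -0.18, -0.22, -0.08, -0.23 and -0.23 in that order, and with the replicate block 3 rose with IL-4 and 2 with IL-6. Hpgds, the haematopoietic prostaglandin D synthase, which belongs to the sigma class of glutathione transferases, fell with IL-4 (-2.00 ± 0.05). It fell by 2.63 ± 0.05 with IL-4 and IL-6 (6.18-fold lower, adjusted p = 4.53e-25) and by 2.59 ± 0.06 with IL-4 and IL-10 (6.01-fold lower, adjusted p = 9.28e-23). It was not called with IL-6 (-0.04, adjusted p = 0.548) or IL-10 (-0.06, adjusted p = 0.463). There the largest decrease was that of Mgst2, 1.05 ± 0.15 and 0.76 ± 0.18, to means under the filter. The largest rises were small, Mgst1 by 0.22 with IL-4 and 0.26 with IL-4 and IL-10, Gstm5 by 0.38 with IL-10 and Gstt2 by 0.19 with IL-4 and IL-6.

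Of 15 tested thioredoxin, peroxiredoxin and methionine sulfoxide reductase genes, 6 fell and 2 rose with IL-4, 6 fell and 0 rose with IL-6, 5 fell and 2 rose with IL-10, 8 fell and 3 rose with IL-4 and IL-6, and 7 fell and 5 rose with IL-4 and IL-10. The median difference was -0.03, -0.05, -0.09, -0.11 and 0.05 in that order, and with the replicate block 5 rose with IL-4 and IL-6. Sesn1, a sestrin, had the largest decreases where IL-4 was present, 1.15 with IL-4, 1.54 ± 0.05 with IL-4 and IL-6 (adjusted p = 8.63e-21) and 1.30 ± 0.06 with IL-4 and IL-10 (adjusted p = 5.52e-17). Srxn1, sulfiredoxin, which repairs overoxidised peroxiredoxins, had the largest with IL-6 (0.71 ± 0.05) and IL-10 (0.75 ± 0.06). Txn2, mitochondrial thioredoxin, rose by 0.34 ± 0.04 with IL-4, by 0.34 ± 0.04 with IL-4 and IL-6 and by 0.60 ± 0.05 with IL-4 and IL-10, and Sesn2 rose by 0.47 ± 0.08 with IL-10.

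Only 2 further superoxide dismutase genes were tested. Sod1, the cytosolic copper-zinc enzyme, fell with all 5 stimulations, by 0.51 ± 0.05 with IL-4, 0.59 ± 0.05 with IL-6, 0.33 ± 0.06 with IL-10, 1.66 ± 0.05 with IL-4 and IL-6 (3.16-fold lower, adjusted p = 1.14e-20) and 1.08 ± 0.06 with IL-4 and IL-10 (2.12-fold lower, adjusted p = 2.23e-14). Sod1 thus moved against Sod2 with IL-6 and with IL-10. Ccs, the copper chaperone of Sod1, rose by 0.18 with IL-10 and 0.32 with IL-4 and IL-10, and was not called in the other comparisons with unstimulated arrays.

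Of 20 tested NRF2 regulators and targets, 12 fell and 5 rose with IL-4, 13 fell and 3 rose with IL-6, 10 fell and 2 rose with IL-10, 14 fell and 4 rose with IL-4 and IL-6, and 13 fell and 2 rose with IL-4 and IL-10. The median difference was -0.13, -0.20, -0.15, -0.39 and -0.23 in that order. Nfe2l2 itself ran from 11.96 to 12.32 on unstimulated arrays. It was lower with all 5 stimulations, by 0.36 ± 0.05 with IL-4, 0.23 ± 0.05 with IL-6, 0.32 ± 0.06 with IL-10, 0.87 ± 0.05 with IL-4 and IL-6 (1.83-fold lower, adjusted p = 2.01e-15) and 1.01 ± 0.06 with IL-4 and IL-10 (2.01-fold lower, adjusted p = 8.74e-15). Its combinations fell by more than the sum of the single decreases, with interactions of -0.28 ± 0.07 (adjusted p = 0.00245) and -0.32 ± 0.08 (adjusted p = 0.00578). The decrease with IL-10 against unstimulated replicates 6 to 8 alone was -0.22 ± 0.07 (adjusted p = 0.0427).

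Within that list some genes rose where Nfe2l2 fell. Hmox1, haem oxygenase 1, rose by 0.68 ± 0.09 with IL-6 (adjusted p = 5.41e-07) and by 0.74 ± 0.09 with IL-4 and IL-6 (adjusted p = 2.66e-08). With IL-10 it gave 0.25 ± 0.11 (adjusted p = 0.0674), which became 0.52 ± 0.10 against unstimulated replicates 6 to 8 (adjusted p = 0.00363). Hmox1 was not called with IL-4 (0.11 ± 0.09, adjusted p = 0.289) or with IL-4 and IL-10 (-0.03 ± 0.11, adjusted p = 0.818). Both directions turn within the set. The IL-4 mean, 9.74, lay below the 9.80 of unstimulated replicates 1 to 5. The mean with IL-4 and IL-10, 9.60, lay above the 9.36 of replicates 6 to 8. Ephx1, microsomal epoxide hydrolase, rose by 1.17 ± 0.15 with IL-4 and fell by 0.83 ± 0.15 with IL-6 and by 1.45 ± 0.18 with IL-10. Akr1b8, an aldo-keto reductase, fell by 1.09 ± 0.08 with IL-4 and by 1.37 ± 0.08 with IL-4 and IL-6, and Cbr1, carbonyl reductase 1, rose by 0.20 ± 0.06 with IL-10, by 0.82 ± 0.05 with IL-4 and IL-6 and by 0.39 ± 0.06 with IL-4 and IL-10.

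Of 10 tested metallothionein and zinc genes, 3 rose and 3 fell with IL-4, 6 rose and 1 fell with IL-6, 7 rose and 1 fell with IL-10, 9 rose and 0 fell with IL-4 and IL-6, and 7 rose and 1 fell with IL-4 and IL-10. The median difference was -0.03, 0.18, 0.18, 0.66 and 0.26 in that order. Against unstimulated replicates 6 to 8 alone the counts for IL-10 were 4 and 0. Of all 7154 tested genes 1394 were then called, 642 of them higher, in place of 2704 and 1309. Slc39a14, a zinc importer of the plasma membrane, had the largest rise with the single STAT3 cytokines, 1.53 ± 0.06 with IL-6 (2.89-fold, adjusted p = 1.42e-17) and 1.66 ± 0.07 with IL-10 (3.17-fold, adjusted p = 2.07e-16). Slc30a4, which moves zinc into vesicles, had the largest with IL-4, 2.11 ± 0.05 (4.31-fold, adjusted p = 1.01e-22). Slc39a8, another zinc importer, fell by 0.91 ± 0.08 with IL-4 to a mean under the filter, and Slc30a1 fell by 0.16 ± 0.04 with IL-6 and by 0.21 ± 0.05 with IL-10.

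The NADPH oxidase, the source of phagocyte superoxide, was read by 7 tested genes. With IL-4 3 fell and 1 rose, with IL-6 1 fell and 1 rose, with IL-10 3 fell and 1 rose, and with each combination 6 fell and 0 rose. The count with IL-6 lies near the shares of all genes. The median difference was -0.06 with IL-4, -0.04 with IL-6, -0.12 with IL-10, -0.28 with IL-4 and IL-6 and -0.32 with IL-4 and IL-10. With the replicate block 4 fell with IL-6, where 3329 of all 7154 tested genes were called in place of 2809. Against unstimulated replicates 6 to 8 alone, 1 fell with IL-10 and 4 fell with IL-4 and IL-10. Fewer of all tested genes were called there too, 1394 in place of 2704 with IL-10 and 4269 in place of 5156 with IL-4 and IL-10. Cybb, its membrane catalytic subunit, ran from 11.12 to 12.09 on unstimulated arrays, and read 9.58, 9.32, 9.36, 9.36 and 8.98 with IL-4 and IL-6 and 9.06, 9.03 and 8.83 with IL-4 and IL-10. No array of either combination came near the unstimulated range. Cybb fell by 2.39 ± 0.11 with IL-4 and IL-6 (5.24-fold lower, adjusted p = 7.61e-17), by 2.73 ± 0.14 with IL-4 and IL-10 (6.65-fold lower, adjusted p = 4.32e-16), by 1.07 ± 0.11 with IL-4 and by 0.78 ± 0.14 with IL-10 (adjusted p = 4.34e-05). The decrease with IL-10 was smaller against unstimulated replicates 6 to 8 alone, at -0.51 ± 0.13 (adjusted p = 0.0195). With IL-6 the difference of -0.20 ± 0.11 was not called (adjusted p = 0.177), but it was -0.36 ± 0.10 against replicates 1 to 5 (adjusted p = 0.00895) and was called with the replicate block as well (adjusted p = 8.25e-06). The interactions of Cybb were -1.12 ± 0.17 with IL-6 (adjusted p = 5.97e-06) and -0.89 ± 0.20 with IL-10 (adjusted p = 0.00164). Ncf4, a cytosolic subunit, fell by 0.30 ± 0.05 with IL-6, Cyba rose by 0.12 ± 0.04 with IL-4, and Cybc1 rose by 0.23 ± 0.04 with IL-6 and by 0.28 ± 0.05 with IL-10.

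**Figure D5:**
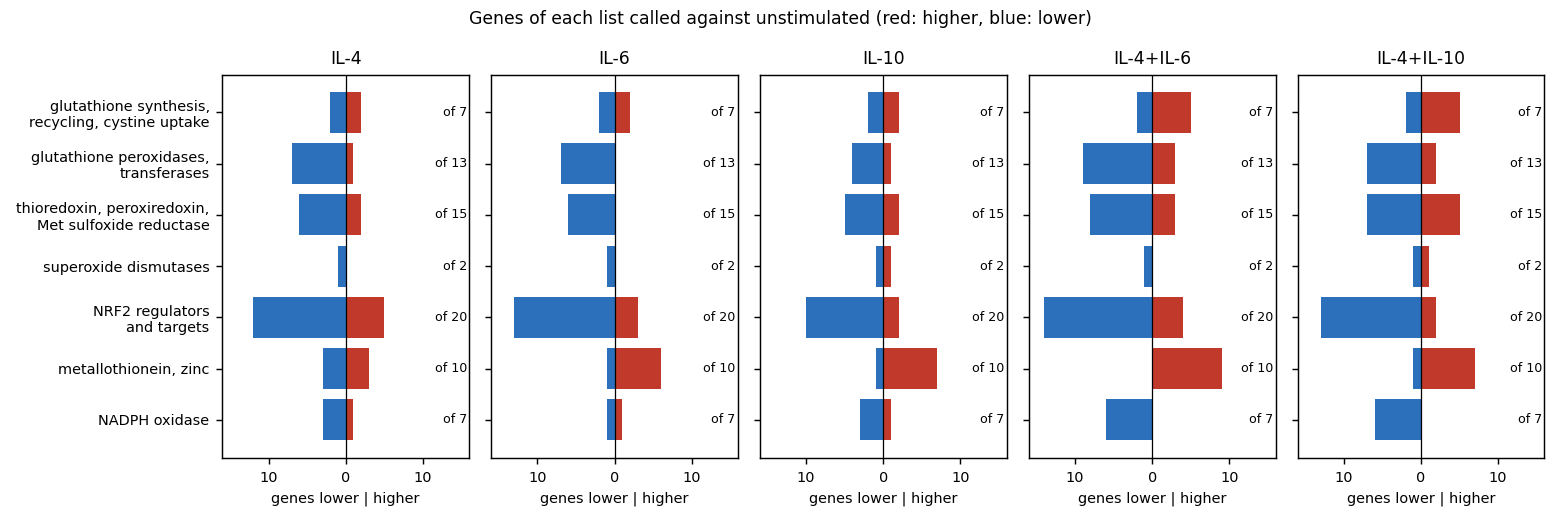
Number of genes of each list called higher (red, right) and lower (blue, left) than unstimulated with each stimulation, out of the number tested at the right of each bar. The metallothionein and zinc list stands mostly to the right in the IL-6 and IL-10 groups, and the NADPH oxidase list stands to the left in both combinations.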

How the data were processed

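The deposited values are log2 levels per probe set made by the authors with RMA, per the submitters' processing notes, which also name GCOS 1.4. Whether all 29 arrays were normalized together is not given in the sources used here, and the number of arrays limits the precision. No array was left out, and no value was changed.

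A probe set was used when the supplied annotation names exactly 1 gene (20393 probe sets). Each gene was represented by its brightest probe set on average, and a gene was tested when at least 3 arrays exceeded the median of all values, 6.99. Linear models over all 6 groups came from limma 3.58.1 under R 4.3.3, with two-sided tests, with Benjamini-Hochberg adjustment over the tested genes, in 12 comparisons. The script was checked on data of known answer.

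All members are named in text or counts. Of each other list the counts were kept, and by name mainly the called gene with the largest difference in each direction against unstimulated. Not every such gene is printed. Mt2, Hmox1, Nfe2l2 and Cybb are given against unstimulated arrays with each stimulation, and Slc7a11 by its group means only. Their other comparisons are printed in part. The 3 tested genes most correlated with each member were also kept. The members and lists were chosen with earlier results of these data known.

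Arrays with the same replicate number deviated together from their group means: 33 of 33 pairs correlated above 0.1 (0.42 to 0.78, median 0.57), so the number was also fitted as a block. Other alternatives tried were median centring, quantile normalization, a stricter filter or none, averaging of probe sets, other variance settings, only the groups compared, a term for the set, stricter thresholds and leaving out each array. Using unstimulated arrays of 1 set only was added after seeing the data. Promoter windows came from RefSeq.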

Additional observations from a re-analysis of the deposited data

Results flagged for a closer look

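In 36 groups of 4 to 10 arrays (the tested genes and Nqo1), 1 array stood apart from the rest of its group by Dixon's criterion. It was IL-4 replicate 2 for Gclc, at 8.82, where the other 4 IL-4 arrays ran from 8.98 to 9.02. Chance gives about 1 such group in 20. The decrease of Gclc with IL-4 was called with and without this array.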

How the results depend on the processing

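Over the alternatives other than leaving out an array, 998 of 1072 gene results kept their direction and side of the threshold, 40 lost the call, 32 gained it and 2 reversed. On leaving out each array, 1103 of 1160 were kept, 46 lost the call, 11 gained it and 0 reversed. The 2 reversals came with a term for the set, at 0.17 for Gpx3 in IL-4 with IL-10 against IL-4, and at -0.048 for Gclm in IL-10 against IL-6.

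Of the counts of members called, 10 of 12 stayed within 1.5 times under every alternative run. For IL-10 against IL-6 the count of 3 became 0 with the term for the set and 1 at an adjusted p under 0.01, and ran from 1 to 3 on leaving out an array (1 without IL-10 replicate 1 or 2). Of all 7154 tested genes 850 were called in the main fit, 7 with the term for the set and 120 at 0.01. Without IL-10 replicate 1 or 2 they were 477 and 89. For the interaction of IL-4 with IL-10 the count of 4 became 2 without a filter, 2 with only the groups compared and 1 at 0.01, and ran from 1 to 4 on leaving out an array. There 1833 of all 7154 tested genes were called in the main fit, 1517 with only the groups compared and 1033 at 0.01. Without a filter 1556 of 12394 were. The cause was not tested. With the replicate block the decrease of Txnrd1 with IL-4 was -0.10, and outside the calls named above for the members the block changed none. It was not fitted for IL-10 groups against others. Unstimulated arrays listed among the IL-10 arrays carry other replicate numbers, and a block pairing them by sample order was not tested. The set is inferred, and with 3 arrays in each IL-10 group the standard errors there were larger than for the groups of 5.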
